A study of Mus musculus with 18 samples.

Results

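The transcripts described here are 10 genes that move or bind manganese, zinc and iron, taken by name from a table of 41079 genes in B16F10 mouse melanomas. They are the divalent metal importers Slc39a14, Slc39a8 and Slc11a2, the manganese exporter Slc30a10, the Golgi manganese and calcium pump Atp2c1, the transferrin receptor Tfrc, the iron exporter Slc40a1, the metallothioneins Mt1 and Mt2, and the mitochondrial manganese superoxide dismutase Sod2. All 10 have a row in the table, and 8 of them had a mean of at least 1 FPKM (assigned fragments scaled by gene length and by the depth of the tumor) over the tumors.

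The tumors grew under the skin of C57BL/6 female mice from B16F10 cells, an established melanoma line, and 18 of them were sequenced, 3 in each of 6 groups. Injections into the tumor began on day 6 and were repeated every 2 days, and tumors were taken 48 h after the last dose. PBS was the vehicle. Free PS473 was a Pistol ribozyme, a self-folding catalytic RNA, directed against PD-L1 mRNA, and PS473@CPs was the same ribozyme in cationic polymers. NKMOF-101-[Mn] was the carrier alone, a metal-organic framework of manganese and squaric acid that releases Mn2+ in acid. M5@NKMOF-101-[Mn] carried an inactive ribozyme mutant and PS473@NKMOF-101-[Mn] the active ribozyme. For the active ribozyme in the framework, the carrier is numbered 102 in the titles and 101 in the treatment text. The age of the mice was not given, the cells came from a single line, and M5 without the framework was not analysed here. The 9 tumors of the last 3 groups had received the manganese framework and the other 9 had not.

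Cells take up manganese through transporters that also carry zinc and iron, so the routes of these metals overlap. Zinc and cadmium induce the metallothioneins through the transcription factor MTF-1, which binds metal response elements in their promoters. Cellular iron acts mainly after transcription, through iron regulatory proteins that bind iron-responsive stem-loops and stabilise Tfrc mRNA or block translation of Slc40a1 mRNA when iron is low. The comparison asked whether tumors given the manganese framework differed from the others in the mRNA of these genes. Tumors with and without the framework also differed in ribozyme and polymer. Cationic polymers were given only without the framework and M5 only with it, and more groups without it had active PS473. Framework, ribozyme and polymer thus cannot be fully told apart in the comparison of all groups.

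The metallothionein promoters are shown because they carry the elements through which metal is read. The windows are from RefSeq on GRCm38.p6, and cover 250 bases before to 50 bases after the annotated start. The capitals mark matches to TGCACNC or TGCGCNC, the core of the metal response element, searched on both strands.
Mt1, chr8:94178839-94179138, plus strand: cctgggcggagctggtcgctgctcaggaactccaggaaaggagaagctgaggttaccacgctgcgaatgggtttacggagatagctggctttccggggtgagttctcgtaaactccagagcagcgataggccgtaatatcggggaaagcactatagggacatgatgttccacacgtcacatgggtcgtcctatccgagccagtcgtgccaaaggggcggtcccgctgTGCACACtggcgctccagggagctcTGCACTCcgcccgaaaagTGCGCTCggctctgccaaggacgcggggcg
Mt2, chr8:94172368-94172667, plus strand: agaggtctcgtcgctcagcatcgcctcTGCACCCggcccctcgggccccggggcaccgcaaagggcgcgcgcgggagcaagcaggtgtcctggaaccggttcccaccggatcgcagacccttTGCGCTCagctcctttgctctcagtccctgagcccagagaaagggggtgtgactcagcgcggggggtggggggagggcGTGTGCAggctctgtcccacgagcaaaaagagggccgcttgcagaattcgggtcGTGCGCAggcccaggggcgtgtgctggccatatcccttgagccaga
The Mt1 window held 3 matches, all on the gene's strand and within 23 bases of the annotated start. The Mt2 window held 4, of which 2 lay on the opposite strand. Both counts and positions depend on the annotated start, and matches outside the windows were not counted. At least 1 match occurred in 25.7% of 32851 promoter windows of this length, at least 3 in 1.97% and at least 4 in 0.517%. Among the 7 of the 10 genes with a promoter entry, Slc30a10 also had a window with 3 matches, a window each of Tfrc and Atp2c1 had 2, one of Slc39a8 had 1, and Sod2 had 0.

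The iron-responsive stem-loops of Tfrc and Slc40a1 are shown because these members matched a fixed pattern for the element read by iron regulatory proteins. The search of GENCODE M21 protein-coding transcripts required an unpaired C, 5 paired bases and the loop CAGTGN, with 5 base pairs closing the loop and at least 4 of 5 pairs below the unpaired C. The capitals mark the CAGTGN loop.
Tfrc loop A, 3′ untranslated region: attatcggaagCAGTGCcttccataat
Tfrc loop B, same region: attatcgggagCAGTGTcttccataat
Tfrc loop C, same region: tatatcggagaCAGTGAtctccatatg
Tfrc loop D, same region: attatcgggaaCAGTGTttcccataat
Slc40a1 loop, 5′ untranslated region: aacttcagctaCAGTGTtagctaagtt
Tfrc had 4 such stem-loops and Slc40a1 had 1, and a match was present in 30 of 21901 protein-coding genes (0.137%). The other 8 genes had 0 matches under this pattern. It can miss elements with a different stem or loop, so these genes may still carry one.

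Sequencing depth was 17212000 to 28401000 assigned fragments a tumor, recovered from the spacing of low FPKM values. All 8 melanocyte genes examined, among them Tyr, Dct and Pmel, were above 0 in every tumor, with a summed level of 5010 to 7915 FPKM. The content of surrounding tissue varied widely. The sum of 15 skin epithelium genes ranged from 2.31 to 5103 FPKM over the tumors, and from 2.89 to 1225 FPKM in those given the framework against 2.31 to 5103 FPKM in those not given it. In whole tumors, fewer cells of a type and less RNA per cell cannot be told apart.

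No difference in the 10 genes between tumors given the manganese framework and the others exceeded the spread between tumors. Of the 8 tested, 0 passed an adjusted p of 0.05 in limma, as did 0% of all 12357 genes tested, and 0 of the 8 had an unadjusted p under 0.05, against 4.56% of all genes (564 of 12357). Of the 8 differences, 4 were positive and 4 negative. Their median was -0.0085 on the log2(FPKM + 1) scale, beside -0.0056 over all genes. They ran from -0.13 for Tfrc to 0.22 for Mt2, with adjusted p-values between 0.900 and 0.990.

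**Figure D1:**
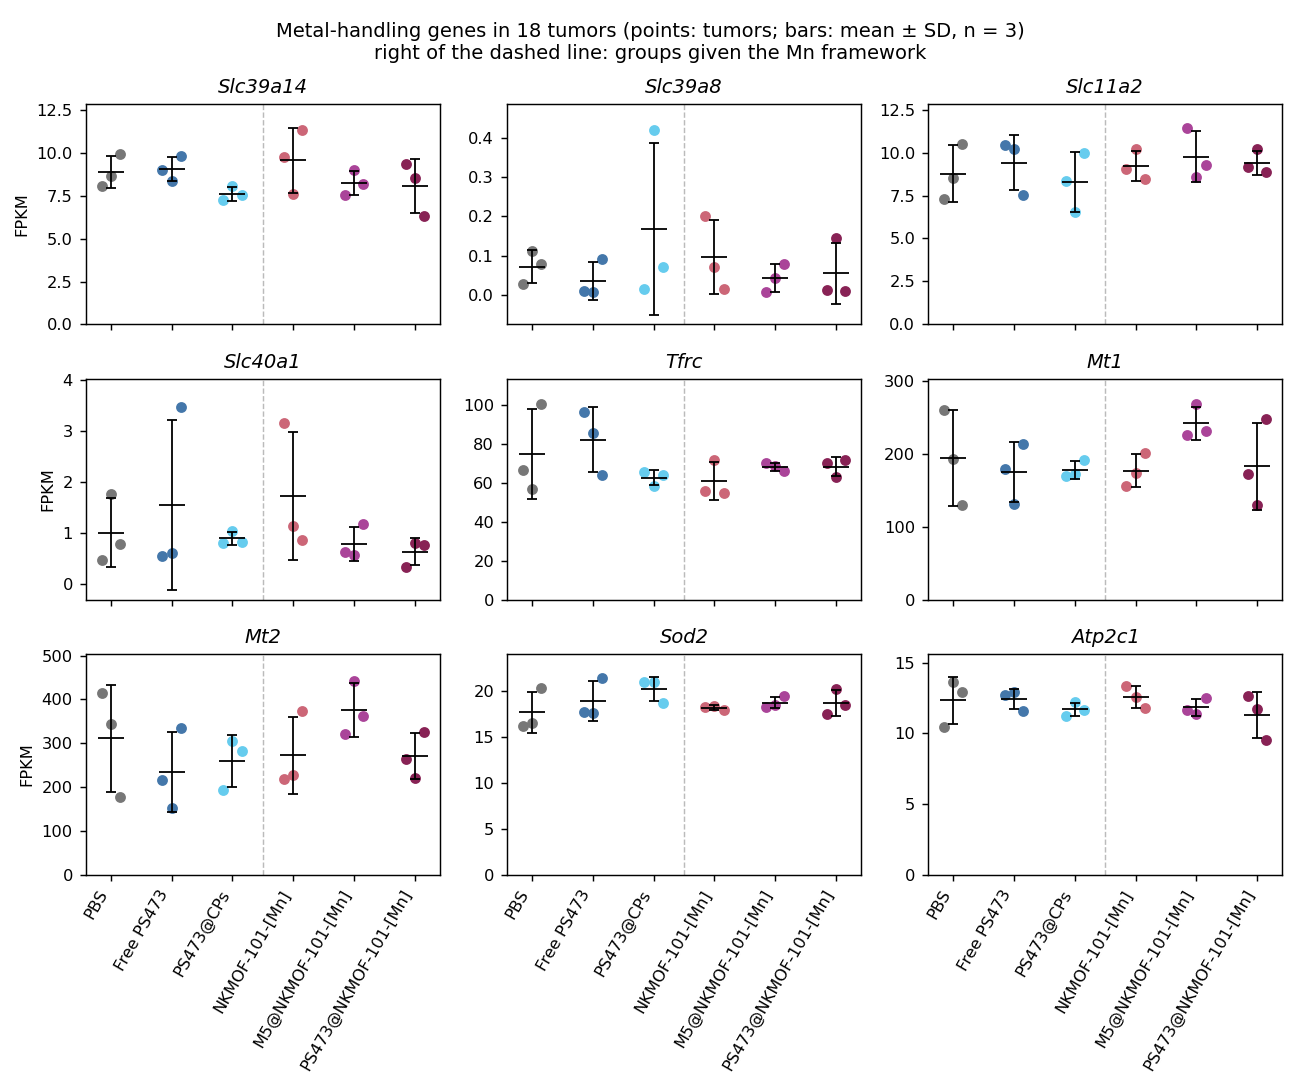
FPKM of 9 metal-handling genes (vertical axes, each from 0 or from just below it) in the 6 groups (horizontal axis), with a point per tumor and bars for the mean and SD of 3 tumors. Groups right of the dashed line had received the manganese framework. Their points lie within or close to the range of the others in every panel, and Slc30a10, at 0 throughout, is not drawn.

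The metallothioneins, small cysteine-rich proteins that buffer zinc and copper, had the highest levels per length of the 10 genes. In assigned fragments, before division by length, Tfrc had the highest range, 7157 to 16192 against 4576 to 9798 for Mt1 and 1924 to 4954 for Mt2. In the PBS tumors Mt1 stood at 261, 193 and 130 FPKM, in the Free PS473 tumors at 179, 132 and 214, and in the PS473@CPs tumors at 169, 172 and 192. In the NKMOF-101-[Mn] tumors Mt1 was at 156, 174 and 202 FPKM, in the M5@NKMOF-101-[Mn] tumors at 226, 268 and 232, and it reached 173, 129 and 248 with PS473@NKMOF-101-[Mn]. The 9 tumors given the framework thus spanned 129 to 268 FPKM (median 202) and the others 130 to 261 (median 179), so the ranges nearly coincided. The difference was 0.13 on the log2(FPKM + 1) scale (SE 0.15, 95% interval -0.18 to 0.44, limma adjusted p = 0.906). That interval corresponds to folds of FPKM + 1 from 0.884 to 1.36.

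Mt2 followed the same course at a higher per-length level. It stood at 415, 343 and 176 FPKM in the PBS tumors, at 217, 153 and 334 in the Free PS473 tumors, and at 192, 304 and 283 in the PS473@CPs tumors. In the tumors given the framework it was at 217, 227 and 374 FPKM for NKMOF-101-[Mn], at 321, 443 and 362 for M5@NKMOF-101-[Mn], and at 264, 222 and 326 for PS473@NKMOF-101-[Mn]. The lowest Mt2 value of the 9 framework tumors was above those of 4 of the other 9, while their highest exceeded the highest PBS tumor by a small margin. The difference was 0.22 (SE 0.19, interval -0.19 to 0.63, limma adjusted p = 0.900). Folds of FPKM + 1 from 0.874 to 1.55 lie inside the interval.

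The carrier alone and the vehicle did not differ in the metallothioneins beyond the spread of the tumors. NKMOF-101-[Mn] against PBS gave -0.085 for Mt1 (interval -0.62 to 0.45) and -0.15 for Mt2 (interval -0.86 to 0.57), with limma adjusted p-values of 1.00 for each. The sign turned without the first PBS tumor (0.15 for Mt1 and 0.10 for Mt2) and with tumor weights (0.17 and 0.16). The highest group means belonged to M5@NKMOF-101-[Mn], at 242 ± 22.9 FPKM for Mt1 and 375 ± 61.9 for Mt2 (SD, n = 3), against 195 ± 65.5 and 311 ± 122 in PBS. Against PBS these differences were 0.37 for Mt1 (interval -0.17 to 0.91) and 0.35 for Mt2 (interval -0.37 to 1.06), with a limma adjusted p of 0.999 for each. They were 0.10 and -0.019 without the third PBS tumor, and 0.61 and 0.60 without the first. All 3 M5@NKMOF-101-[Mn] tumors were above all 3 NKMOF-101-[Mn] tumors in Mt1, a separation that 15% of all genes tested showed in one direction or the other between those groups. The difference between those groups was not tested.

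For the active ribozyme, the framework was compared with no carrier and with polymers. PS473@NKMOF-101-[Mn] against Free PS473 gave 0.043 for Mt1 (interval -0.50 to 0.58) and 0.26 for Mt2 (interval -0.45 to 0.98). Against PS473@CPs it gave -0.0056 for Mt1 (interval -0.54 to 0.53) and 0.067 for Mt2 (interval -0.65 to 0.78). All of these intervals include 0.

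Mt1 and Mt2 varied together from tumor to tumor, in both arms. Pearson's r over the 18 tumors was 0.89 and Spearman's rho 0.87, and r was 0.88 within the 9 framework tumors and 0.90 within the other 9. It remained 0.89 without the 2 tumors farthest from the median Mt1 level. The genes most like Mt1 were Vdac1 (r = 0.90), a mitochondrial outer membrane channel, then Mt2, then Higd1a (r = 0.86), a hypoxia-inducible mitochondrial protein. Those most like Mt2 were Tnfrsf9 (r = 0.91), a costimulatory receptor, Hilpda (r = 0.89), a hypoxia-inducible lipid droplet protein, then Mt1. The mean level of 9 hypoxia genes, which include Car9, Vegfa and Bnip3, had r = 0.79 with Mt2 (rho 0.76, and 0.80 without the 2 farthest tumors) and r = 0.60 with Mt1 (rho 0.61, and 0.69 without them). The hypoxia genes were summed at 333 to 611 FPKM in the framework tumors and at 284 to 791 FPKM in the others, and all 9 were above 0 in every tumor. These values describe 162 correlations of members with each other and with 14 marker lists, from which those given here were picked after their values were seen, and the part of hypoxia in the metallothionein levels was not tested.

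Levels between genes depend on the length used. Mt2 was 1.13 to 1.86 times Mt1 in FPKM (median 1.5). The table gives Mt1 a length of 1800 bases and Mt2 one of 556, whereas the protein-coding transcripts in GENCODE M21 reach 1085 bases for Mt1 and 511 for Mt2. In assigned fragments, before division by length, the ratio of Mt2 to Mt1 was 0.350 to 0.573, so the order of the pair turned with the length. Fragments that map to both paralogs could also be divided between them by the authors' counting.

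**Figure D2:**
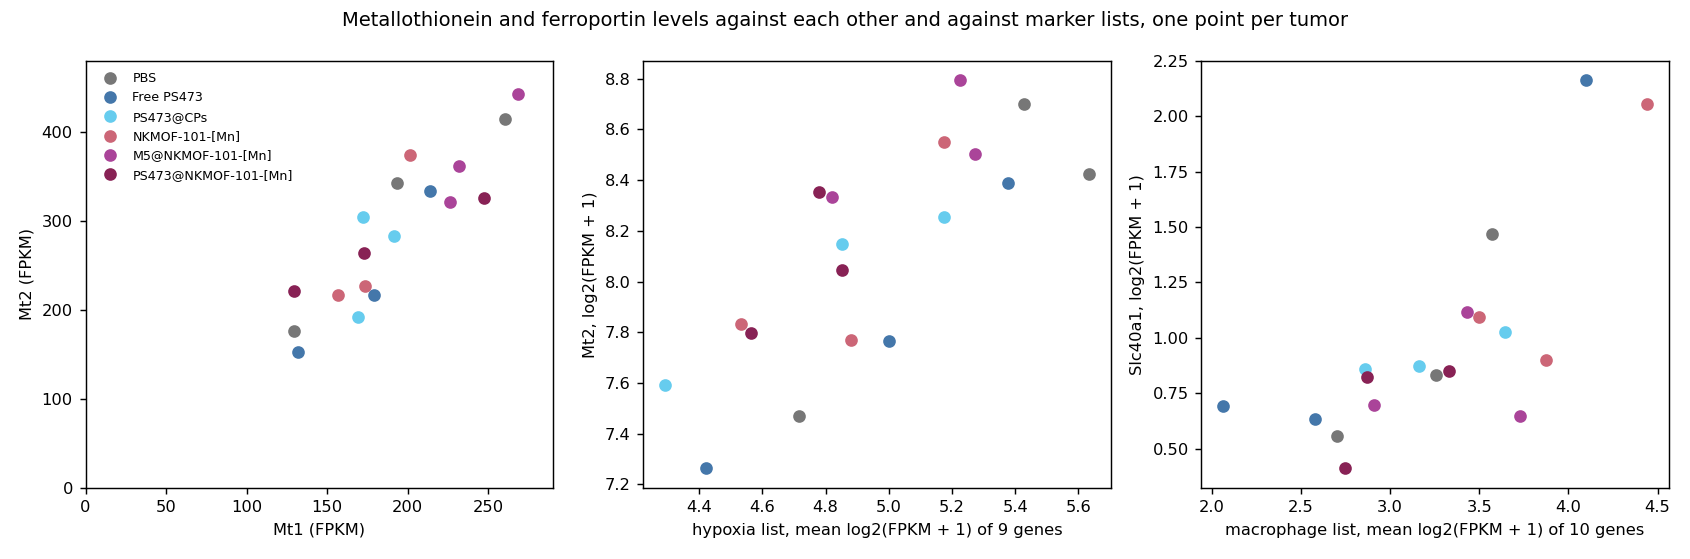
The left panel plots Mt2 against Mt1 in FPKM, the middle panel Mt2 against the mean of 9 hypoxia genes, and the right panel Slc40a1 against the mean of 10 macrophage genes, the last 2 panels on the log2(FPKM + 1) scale with axes that do not start at 0. Each point is a tumor coloured by group. The points rise together over the 18 tumors, with r of 0.89, 0.79 and 0.75, but not within every group. In the right panel, the M5@NKMOF-101-[Mn] tumor with the highest macrophage mean had the lowest Slc40a1 of its group.

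Tfrc, the receptor that takes up transferrin-bound iron, was the next highest member in FPKM. It stood at 66.7, 56.8 and 100 FPKM in the PBS tumors, at 96.4, 85.6 and 63.9 in the Free PS473 tumors, and at 65.4, 58.3 and 63.9 in the PS473@CPs tumors. In the tumors given the framework it was at 55.9, 71.7 and 54.6 FPKM for NKMOF-101-[Mn], at 69.9, 68.7 and 65.9 for M5@NKMOF-101-[Mn], and at 70.1, 62.7 and 71.8 for PS473@NKMOF-101-[Mn]. All 9 framework tumors lay between 54.6 and 71.8 FPKM, and the 3 tumors above 80 had PBS or Free PS473. The difference was -0.13 on the log2(FPKM + 1) scale (SE 0.11, interval -0.35 to 0.098, limma adjusted p = 0.900).

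The separate comparisons of Tfrc did not share a direction. They gave -0.26 for NKMOF-101-[Mn] against PBS (interval -0.65 to 0.13), -0.088 for M5@NKMOF-101-[Mn] against PBS (interval -0.48 to 0.30) and -0.24 for PS473@NKMOF-101-[Mn] against Free PS473 (interval -0.64 to 0.15). Against PS473@CPs the difference was 0.12 (interval -0.27 to 0.51). The first pair of comparisons share the PBS tumors. In the order of group means, from Free PS473 at 82.0 FPKM down to NKMOF-101-[Mn] at 60.7, neighbouring groups overlapped except M5@NKMOF-101-[Mn] over PS473@CPs, a separation found in 10.3% of all genes tested. The genes most like Tfrc were the predicted gene Gm20604 (r = 0.81), Moap1 (r = 0.79), a modulator of apoptosis, and Gm52885 (r = 0.75).

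Slc40a1, or ferroportin, the exporter of iron from cells, was weakly expressed and varied most of the 8 tested, with an SD of 0.48 on the log2(FPKM + 1) scale over the tumors. It stood at 0.470, 1.77 and 0.779 FPKM in the PBS tumors, at 0.549, 0.614 and 3.48 in the Free PS473 tumors, and at 0.812, 1.04 and 0.831 in the PS473@CPs tumors. In the framework groups it was at 3.16, 1.14 and 0.865 FPKM for NKMOF-101-[Mn], at 0.620, 0.567 and 1.17 for M5@NKMOF-101-[Mn], and at 0.329, 0.801 and 0.770 for PS473@NKMOF-101-[Mn]. A single tumor in each arm was above 3 FPKM, and these values rest on 43 to 407 fragments. The difference was -0.056 (SE 0.22, interval -0.52 to 0.41, limma adjusted p = 0.968).

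The 3 PS473@NKMOF-101-[Mn] tumors were all below the 3 PS473@CPs tumors in Slc40a1, as were the tumors of one group below or above the other in 4.12% of all genes tested. It was the only one of the 8 genes whose tumors separated in any of the 4 comparisons between single groups, in which 6.02%, 8.11%, 6.82% and 4.12% of all genes separated. The highest of the former, 0.801 FPKM, was close to the lowest of the latter, 0.812. The fitted difference was -0.23 (interval -1.04 to 0.59, limma adjusted p = 0.996). For NKMOF-101-[Mn] against PBS the difference was 0.40 (interval -0.41 to 1.21), and it was 0.044 without the first NKMOF-101-[Mn] tumor. Against Free PS473, PS473@NKMOF-101-[Mn] differed by -0.47 (interval -1.28 to 0.34), and by 0.033 without the third Free PS473 tumor.

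Slc40a1 varied with genes of myeloid cells and of several other tissue cell types. The genes most like it were Lyz2 (r = 0.89), the macrophage and neutrophil lysozyme, Fcgr2b (r = 0.87), an inhibitory Fc receptor, and Clec4n (r = 0.86), a myeloid lectin receptor. The mean of 10 macrophage genes, which include Cd68, Adgre1 and Csf1r, had r = 0.75 with Slc40a1 (rho 0.76, 0.70 without the 2 farthest tumors), and r was 0.78 within the framework tumors and 0.82 within the others. Adipocyte genes had a higher r of 0.82 (0.37 without the 2 farthest tumors). Slightly lower were 0.72 for endothelial genes (0.76 without them), 0.69 for glucocorticoid-responsive genes (0.77) and 0.68 for fibroblast genes (0.73). The values thus do not single out the macrophage list. All 10 macrophage genes were above 0 in every tumor, and their sum ran from 107 to 378 FPKM in the framework tumors and from 52.7 to 283 in the others. Of the 9 macrophage genes tested, 7 were higher in the framework groups and 0 passed an adjusted p of 0.05. Their median difference was 0.47, beside -0.0056 over all genes. The single comparisons did not share this direction. All 9 were higher in NKMOF-101-[Mn] than in PBS (median 0.82), and 7 in M5@NKMOF-101-[Mn] than in PBS (median 0.35). In PS473@NKMOF-101-[Mn], 7 were higher than in Free PS473 (median 0.39), and all 9 were lower than in PS473@CPs (median -0.17). The part of macrophage or other cell content in the Slc40a1 levels was not tested.

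Of the divalent metal importers, Slc39a14 and Slc11a2 had similar levels per length, and Slc39a8 was far below them. Slc39a14, which carries manganese, zinc and iron into cells, had a lowest, median and highest value of 6.33, 8.56 and 11.3 FPKM in the framework tumors and of 7.24, 8.39 and 9.93 in the others. The framework range enclosed that of the others. The difference was 0.0074 (SE 0.081, interval -0.17 to 0.18, limma adjusted p = 0.990), and its folds of FPKM + 1 reach from 0.892 to 1.13. NKMOF-101-[Mn] had the highest mean Slc39a14, at 9.57 ± 1.88 FPKM, and PS473@CPs the lowest, at 7.61 ± 0.427 (SD, n = 3). The genes most like it were Pigg (r = 0.86), an enzyme of GPI anchor synthesis, Slc16a6 (r = 0.86), a monocarboxylate family transporter, and A230020J21Rik (r = 0.82).

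Slc11a2, or DMT1, which imports ferrous iron and manganese, had a lowest, median and highest value of 8.46, 9.14 and 11.4 FPKM in the framework tumors and of 6.52, 8.55 and 10.5 in the others. The 3 lowest tumors, at 6.52, 7.27 and 7.55 FPKM, had not received the framework. The difference was 0.10 (SE 0.092, interval -0.095 to 0.30, limma adjusted p = 0.901), and its folds of FPKM + 1 reach from 0.936 to 1.23. Slc11a2 was most like Lig4 (r = 0.94), a DNA ligase, Tbc1d4 (r = 0.92), a regulator of glucose transporter traffic, and Tmem260 (r = 0.90). With the melanocyte genes its r was 0.64, and 0.42 without the 2 farthest tumors. It was 0.57 with skeletal muscle genes (0.51 without them) and -0.54 with hypoxia genes (-0.72).

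Slc39a8, a close relative of Slc39a14 with the same metals, was near the limit of these libraries. It had a lowest, median and highest value of 0.00881, 0.0427 and 0.201 FPKM in the framework tumors and of 0.00788, 0.0712 and 0.418 in the others, which correspond to between 1.5 and 101.5 fragments. The third NKMOF-101-[Mn], first PS473@CPs and first PS473@NKMOF-101-[Mn] tumors had 3 fragments each. The first and second Free PS473 tumors and the third PS473@NKMOF-101-[Mn] tumor had 2 each, and the first M5@NKMOF-101-[Mn] tumor had 1.5. The correlations below include these tumors. Fitted without a filter on low values, the difference was -0.031 (SE 0.058, interval -0.16 to 0.094, limma adjusted p = 0.916), on a scale that understates change at such levels. The highest value belonged to the second PS473@CPs tumor, which also had the highest skin epithelium sum, 5103 FPKM. Over the tumors Slc39a8 had r = 0.80 with the fibroblast list (rho 0.89, 0.88 without the 2 farthest tumors). It had r = 0.81 with the NF-kB and acute phase genes (rho 0.89), 0.80 with skin epithelium and 0.77 with glucocorticoid-responsive genes. The part of these genes or of their cells in its level was not tested. The summed level of the 6 fibroblast genes ran from 64.1 to 556 FPKM in the framework tumors and from 28.3 to 642 FPKM in the others, and all 6 were above 0 in every tumor.

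Slc30a10, which exports manganese from cells, was listed at 0 in all 18 tumors. For its length of 5836 bases, a count of 0 allows up to 3 fragments, or 0.0181 to 0.0299 FPKM according to the depth of the tumor, a limit for counting error only. No difference between groups was therefore detectable at this depth.

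Atp2c1, the pump that loads manganese and calcium into the Golgi, and Sod2, the manganese enzyme that removes superoxide in mitochondria, varied least. Their spread over the tumors, as the SD on the log2 scale, was below that of most genes, with 14.4% of genes tested less variable than Atp2c1 and 11.1% less variable than Sod2. Atp2c1 had a lowest, median and highest value of 9.53, 11.8 and 13.3 FPKM in the framework tumors and of 10.5, 12.2 and 13.6 in the others. Its difference was -0.029 (SE 0.061, interval -0.16 to 0.10, limma adjusted p = 0.940). Sod2 had 17.4, 18.4 and 20.2 FPKM in the framework tumors and 16.2, 18.7 and 21.4 in the others. The 9 framework tumors lay inside the range of the others, and the difference was -0.025 (SE 0.056, interval -0.14 to 0.095, limma adjusted p = 0.943).

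For Sod2 and Atp2c1 the 95% intervals of the pooled comparison correspond to folds of FPKM + 1 from 0.905 to 1.07 and from 0.896 to 1.07. In the comparisons between single groups the Sod2 difference ran from -0.11 against PS473@CPs (interval -0.32 to 0.099) to 0.085 for M5@NKMOF-101-[Mn] against PBS (interval -0.12 to 0.29). Atp2c1 was most like Rreb1 (r = 0.90), a zinc finger transcription factor, Pcdh7 (r = 0.86), a protocadherin, and Frrs1 (r = 0.86), a ferric reductase. Sod2 was most like Mir6385 (r = 0.79), Sycp3 (r = 0.75), a meiotic chromosome protein, and Brix1 (r = 0.74), a ribosome assembly factor. These were picked as the highest of 12356 genes, whose median absolute r with Sod2 was 0.20.

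**Figure D3:**
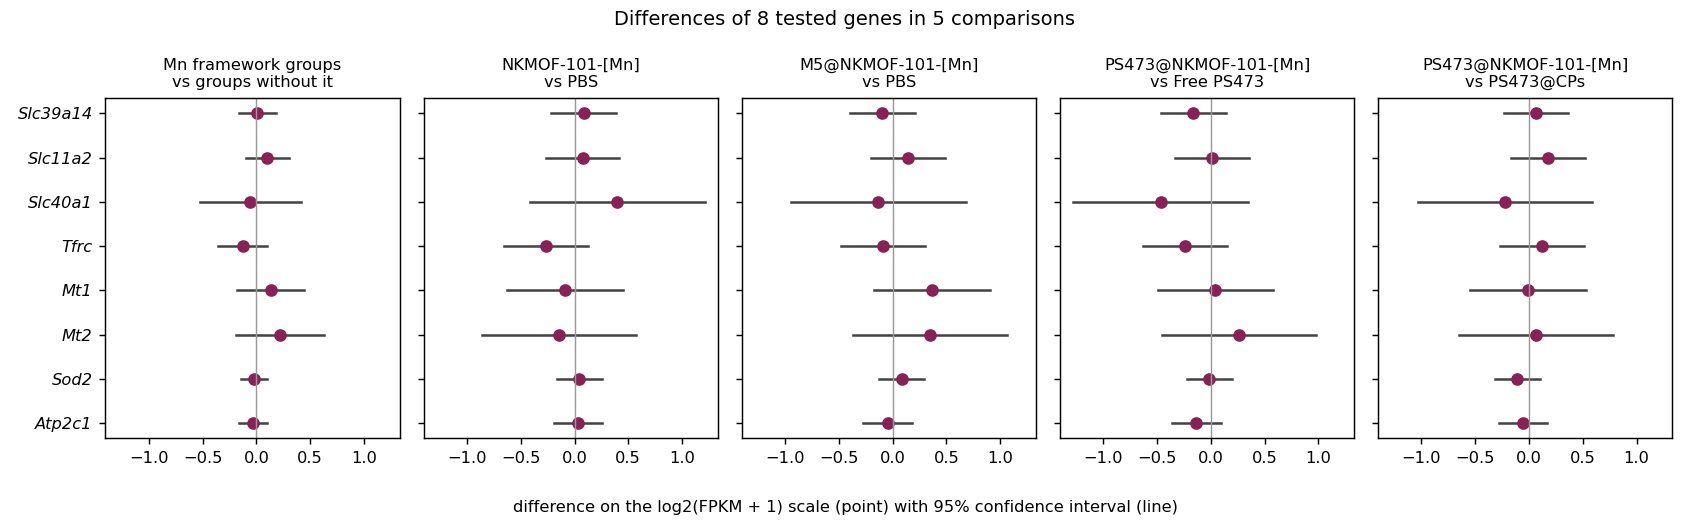
Differences of the 8 tested genes on the log2(FPKM + 1) scale (points) with 95% confidence intervals (lines) in the comparison of the 3 framework groups with the 3 others and in 4 comparisons between single groups. Every interval includes 0, the narrowest for Sod2 in the pooled comparison (-0.14 to 0.095) and the widest for Slc40a1 in the comparisons between single groups.

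In the comparisons between single groups, 0 of the 8 genes passed the adjusted threshold in limma, and 0% of all genes did. An unadjusted p under 0.05 was reached by 0 of the 8 in each, against 1.46% of all genes for NKMOF-101-[Mn] over PBS, 1.51% for M5@NKMOF-101-[Mn] over PBS, 4.98% for PS473@NKMOF-101-[Mn] over Free PS473 and 2.29% over PS473@CPs. The first and second of these comparisons share the PBS tumors, and the latter pair share the PS473@NKMOF-101-[Mn] tumors.

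The framework difference with the ribozyme was set against that without it. For this, the difference of NKMOF-101-[Mn] over PBS was subtracted from that of PS473@NKMOF-101-[Mn] over Free PS473. Free PS473 had no carrier, and the paper reports minimal uptake of it by cultured cells. Ribozyme delivery and a changed action of the framework thus cannot be told apart here. Again 0 of the 8 genes passed the adjusted threshold in limma (0% of all genes), and 0 had an unadjusted p under 0.05, against 2.68% of all genes. Slc40a1 had the largest value at -0.87 (SE 0.54, interval -2.01 to 0.28, limma adjusted p = 1.00). That value was -0.36 without the third Free PS473 tumor, -0.51 without the first NKMOF-101-[Mn] tumor and -1.13 without the first Free PS473 tumor. Mt2 followed at 0.41 (interval -0.60 to 1.42), and leaving out each tumor gave 0.14 to 0.77.

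The wider metal genes, 87 in 5 lists compiled by function, gave 0 genes past the adjusted threshold in any comparison. In the pooled comparison the zinc transporters outside the 10 had 14 of 21 genes tested, 7 higher and 7 lower, with a median of 0.0019. Slc30a1, the zinc exporter that is itself induced by zinc through MTF-1, was at 2.02 to 4.18 FPKM (median 3.45) in the framework tumors and at 2.10 to 3.56 (median 2.69) in the others. Its difference was 0.21 (SE 0.090, limma adjusted p = 0.900, unadjusted 0.038). It was the only one of these 14 zinc transporters with an unadjusted p under 0.05, where 4.56% of all genes had one and 2.93% were higher. The part of metal in its level was not tested. Slc30a6, a Golgi zinc transporter, was second at -0.093 (SE 0.068).

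Of the other manganese genes, 5 of 7 tested were higher and 2 lower, with a median of 0.045. Slc11a1, the phagosomal metal transporter of macrophages, was at 1.83 to 7.17 FPKM (median 3.99) in the framework tumors and at 0.817 to 3.56 (median 2.17) in the others. Its difference was 0.60 (SE 0.21, limma adjusted p = 0.900, unadjusted 0.012). Slc11a1 had r = 0.80 with the macrophage genes (rho 0.79, 0.70 without the 2 farthest tumors), and the part of macrophage content in its level was not tested. Lrrk2, a kinase associated with vesicle traffic, differed by 0.14 (SE 0.077).

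The iron genes had 24 of 35 tested, 16 higher and 8 lower, with a median of 0.012. Steap3, a ferric reductase of endosomes, was at 13.1 to 17.2 FPKM (median 14.5) in the framework tumors and at 10.0 to 16.1 (median 12.5) in the others, a difference of 0.23 (SE 0.084, limma adjusted p = 0.900, unadjusted 0.017). Ceruloplasmin, Cp, a copper ferroxidase, differed by 0.24 (SE 0.093, limma adjusted p = 0.900, unadjusted 0.021). In this list 3 genes had an unadjusted p under 0.05, all higher, where 2.93% of all genes were higher at that level.

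The metal response and copper genes had 10 of 13 tested, 3 higher and 7 lower, with a median of -0.040. Gclm, a subunit of the enzyme that limits glutathione synthesis, differed by 0.18 (SE 0.10), and Mtf1, the metal-sensing factor itself, by -0.088 (SE 0.058). Among manganese-dependent enzymes and the other superoxide dismutases, 8 of 10 were tested, 4 higher and 4 lower, with a median of 0.029. Pck2, mitochondrial PEP carboxykinase, was at 9.56 to 18.3 FPKM (median 11.7) in the framework tumors and at 6.38 to 14.5 (median 10.2) in the others, a difference of 0.31 (SE 0.13, limma adjusted p = 0.900, unadjusted 0.036). Xpnpep1, a manganese aminopeptidase, differed by 0.11 (SE 0.064).

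**Figure D4:**
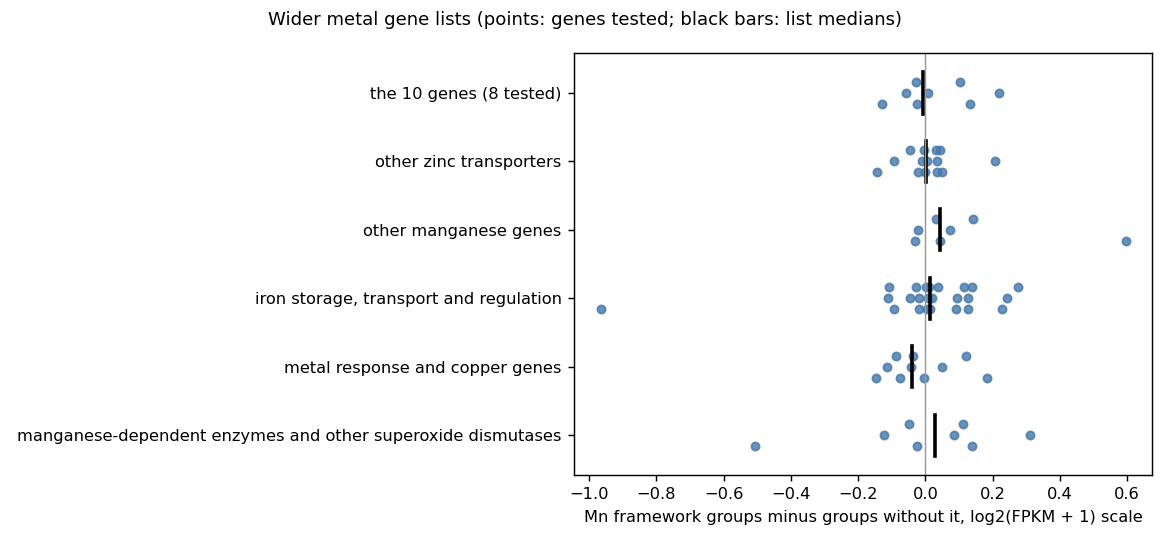
Differences between the 3 framework groups and the 3 others on the log2(FPKM + 1) scale (horizontal axis) for the genes tested in 6 lists (vertical axis, with points offset to keep them apart). Black bars are list medians, which lie between -0.040 and 0.045, and the 2 points below -0.5 are Lcn2 (-0.97) and Sod3 (-0.51), named here after their values were seen.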

How the data were processed

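RNA from 18 tumors was enriched for poly(A) transcripts, fragmented and copied with random hexamers. The authors deposited FPKM values for 41079 genes with a length per gene. The submitters' processing notes name the build GRCm39, and the aligner, counter and annotation are not given in the sources used here. Between 47.2% and 51.2% of low values (up to 20 fragments) were whole fragments within 0.02, and 98.2% to 99% multiples of 0.25, so no count model was used. Tumors were grouped by their labels, the table's columns were matched to them by the treatment that each header names, and p-values measure the spread between tumors, for which separate mice are not stated. Values were taken as log2(FPKM + 1). A mean of 1 FPKM or more was required, and limma 3.58.1 was fitted to the remaining 12357 genes in R 4.3.3 (6 group means, trend in the prior variance, Benjamini-Hochberg over all genes tested, two-sided), which was tested on simulated data. Fold changes on this scale understate change in low genes. Scores and correlations used Python 3.11.15. No tumor repeated another's values. The members and lists were chosen with earlier results of these data known. Named from the wider lists are the 2 genes per list with the smallest p in the pooled comparison, and as most alike the 3 genes with the highest r. The latter were picked from 12356 genes over 18 tumors, so their r is high partly through the picking. The median absolute r ran from 0.20 for Sod2 to 0.32 for Atp2c1. Alternatives were another pseudocount, other filters and scalings, tumor weights, a skin covariate, a replicate block, fits of only the groups compared, other thresholds and leaving out each tumor. RefSeq promoters are on GRCm38.p6, and no coordinates of the deposited build are printed.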

Additional observations from a re-analysis of the deposited data

Results flagged for a closer look

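In 18 sets of 9 tumors (9 genes above 0, with and without the framework), 3 held a tumor whose gap to its nearest neighbour exceeded 0.493 of the range, a limit that chance passes in about 1 in 20 sets. Slc39a8 was at 0.418 FPKM in the second PS473@CPs tumor, beside 0.112 FPKM in the next highest tumor without the framework. Slc40a1 was at 3.16 FPKM in the first NKMOF-101-[Mn] tumor, beside 1.17 FPKM in the next highest framework tumor. Atp2c1 was at 9.53 FPKM in the third PS473@NKMOF-101-[Mn] tumor, beside 11.4 FPKM in the next lowest.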

How the results depend on the processing

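No member passed an adjusted p of 0.05 under any alternative, and the smallest was 0.056, for Tfrc in PS473@NKMOF-101-[Mn] over Free PS473 with tumor weights. Counts of genes called moved from 0 as follows. Without a filter on low values they were 2 in the pooled comparison, 3 for M5@NKMOF-101-[Mn] over PBS, 2 for PS473@NKMOF-101-[Mn] over Free PS473, 1 over PS473@CPs and 1 for the interaction. With tumor weights the count was 657 over Free PS473, where the first Free PS473 tumor had a weight of 17.1 and the other tumors 0.206 to 2.34, and the cause was not tested. At an unadjusted p under 0.05 the counts were 564, 181, 187, 615, 283 and 331, in the order pooled, carrier alone over PBS, carrier with M5 over PBS, PS473@NKMOF-101-[Mn] over Free PS473, the same over PS473@CPs, and interaction. Leaving out each tumor gave 0 to 1 gene in the pooled comparison and 0 in the others.

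Small differences of members changed sign, none of them past the threshold, and PS473@NKMOF-101-[Mn] is the group set over Free PS473 and over PS473@CPs. With tumor weights these were Slc11a2 (-0.0074) and Slc40a1 (0.093) in the pooled comparison, and Slc11a2 (-0.058), Mt1 (0.17), Mt2 (0.16), Sod2 (-0.045) and Atp2c1 (-0.024) for NKMOF-101-[Mn] over PBS. They were also Sod2 (-0.0085) for M5@NKMOF-101-[Mn] over PBS, and Slc11a2 (-0.13), Mt1 (-0.11) and Sod2 (0.035) over Free PS473. They were also Atp2c1 (0.061) over PS473@CPs, and Tfrc (-0.018), Mt1 (-0.28) and Sod2 (0.080) in the interaction. With a skin covariate these were Slc40a1 (0.049) in the pooled comparison, and Slc40a1 (0.19) and Atp2c1 (0.011) for M5@NKMOF-101-[Mn] over PBS. With quantile normalization these were Slc40a1 (0.089) for M5@NKMOF-101-[Mn] over PBS, and Sod2 (0.0034) over Free PS473. They were also Mt1 (0.038) over PS473@CPs. With upper-quartile scaling these were Mt1 (0.0021) over PS473@CPs.

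Leaving out each tumor in turn gave ranges that cross 0. In the pooled comparison they were -0.032 to 0.056 for Slc39a14, -0.17 to 0.11 for Slc40a1, -0.043 to 0.0080 for Sod2 and -0.064 to 0.0067 for Atp2c1. For NKMOF-101-[Mn] over PBS they were -0.035 to 0.23 for Slc39a14, -0.039 to 0.20 for Slc11a2, -0.35 to 0.15 for Mt1, -0.51 to 0.10 for Mt2, -0.011 to 0.14 for Sod2 and -0.074 to 0.10 for Atp2c1. For M5@NKMOF-101-[Mn] over PBS they were -0.33 to 0.13 for Slc40a1, -0.26 to 0.14 for Tfrc, -0.019 to 0.60 for Mt2 and -0.15 to 0.023 for Atp2c1. Over Free PS473 they were -0.13 to 0.083 for Slc11a2, -0.73 to 0.033 for Slc40a1, -0.20 to 0.27 for Mt1, -0.011 to 0.55 for Mt2 and -0.069 to 0.075 for Sod2. Over PS473@CPs they were -0.039 to 0.21 for Slc39a14, -0.25 to 0.22 for Mt1, -0.14 to 0.20 for Mt2 and -0.14 to 0.052 for Atp2c1. In the interaction they were -0.20 to 0.048 for Slc11a2, -0.21 to 0.19 for Tfrc, -0.11 to 0.39 for Mt1 and -0.16 to 0.030 for Sod2.

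Fits with the replicate number as a block called 0 genes in each comparison. Their differences were identical to those without it, which was fixed in advance because each number occurs once in every group. Deviations of same-numbered tumors correlated from -0.73 to 0.72 (median -0.019), and 4 of 18 tumors matched their own number best. These values show no pairing of tumors by number, but they cannot exclude one. Depth limits Slc39a8 and Slc30a10 most.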
